A study of Mus musculus with 2 samples.

Results

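The NF-kB family was described through 10 genes, chosen by symbol from the 31053 genes of both count matrices. Nfkb1, Rela, Rel, Nfkb2 and Relb are the subunit genes. Nfkbia, Nfkbie, Nfkbiz and Nfkbid are genes of IkB proteins, grouped here as inhibitors, and Tnfaip3 completes the 10. All 10 were present and protein coding. The material was lung CD45+ leukocytes of mice, sorted by flow cytometry and profiled by droplet 3′ single-cell RNA-seq. The exposed library came from mice that inhaled diesel exhaust particles (DEP) in a whole-body chamber at 500 µg/m3 for 1 hour a day, 5 days a week, over 2 weeks, and its label reads Ccr2-/- (KO), CD45.3+. The control library came from mice with no treatment, and its label reads Ccr2-/- (KO), CD45.1+. The study's design text names wild-type C57BL/6J as well as Ccr2-/- mice, while both libraries carry a knockout label, so no comparison of genotypes was made. Ccr2 UMIs were present in classical monocyte-like cells at 777 UMIs per 1000000 UMIs of the class (CPM) in the exposed library and 581 CPM in the control library. The position of the deletion relative to the 3′ tags is not given in the sources used here, so this value does not check the genotype label. How many animals a library pooled is not given either. Ptprc, the gene of CD45, was present in every class, at 383 to 2361 CPM in the exposed and 406 to 2593 CPM in the control library.

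NF-kB dimers of RelA, c-Rel, RelB, p50 (from Nfkb1) and p52 (from Nfkb2) sit in the cytoplasm of resting cells and move to the nucleus when receptors for microbes or inflammatory cytokines activate the IkB kinases. Nfkbia and Nfkbie encode IkB alpha and IkB epsilon, which hold dimers in the cytoplasm. Nfkbiz and Nfkbid encode nuclear IkB proteins that act on promoters, and Tnfaip3 encodes A20, a ubiquitin-editing enzyme that damps signalling upstream of the kinases. NF-kB induces Nfkbia, Nfkbie and Tnfaip3 among its targets, so their transcripts are widely used as feedback readouts. In the lung, alveolar macrophages, neutrophils and monocytes use the pathway to respond to inhaled material.

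On mm10 the subunit genes lie at chr3:135584655-135691547 (Nfkb1), chr19:5637483-5648130 (Rela), chr11:23736847-23770970 (Rel), chr19:46304320-46312385 (Nfkb2) and chr7:19606217-19629438 (Relb). The genes of the inhibitors lie at chr12:55489410-55492647 (Nfkbia), chr17:45555703-45563169 (Nfkbie), chr16:55811375-55838899 (Nfkbiz) and chr7:30421732-30428746 (Nfkbid), and Tnfaip3 lies at chr10:19000910-19015657. Rela and Nfkb2 share a chromosome, as do Relb and Nfkbid, and the other members stand alone on theirs.

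The promoter windows of Nfkbia, Nfkbie, Tnfaip3 and Rela are shown because the first was the member most often higher in the exposed library, the second was higher in some classes and lower in others, and the last pair were often lower. Each run is the 250 bases upstream of the annotated start, taken from RefSeq on GRCm38.p6, with capitals marking matches to the 10-base kB consensus on either strand.
Nfkbia, chr12:55492648-55492897, minus strand: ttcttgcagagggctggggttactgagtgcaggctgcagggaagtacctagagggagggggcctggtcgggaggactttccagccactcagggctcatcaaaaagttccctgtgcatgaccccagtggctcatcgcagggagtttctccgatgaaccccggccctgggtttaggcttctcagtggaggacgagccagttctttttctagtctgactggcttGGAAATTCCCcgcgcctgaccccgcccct
Nfkbie, chr17:45555450-45555699, plus strand: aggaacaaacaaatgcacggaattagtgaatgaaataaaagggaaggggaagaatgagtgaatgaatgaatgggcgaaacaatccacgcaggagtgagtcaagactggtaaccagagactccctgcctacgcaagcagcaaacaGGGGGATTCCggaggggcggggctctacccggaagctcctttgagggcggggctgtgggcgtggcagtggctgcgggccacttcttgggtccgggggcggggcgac
Tnfaip3, chr10:19015411-19015660, minus strand: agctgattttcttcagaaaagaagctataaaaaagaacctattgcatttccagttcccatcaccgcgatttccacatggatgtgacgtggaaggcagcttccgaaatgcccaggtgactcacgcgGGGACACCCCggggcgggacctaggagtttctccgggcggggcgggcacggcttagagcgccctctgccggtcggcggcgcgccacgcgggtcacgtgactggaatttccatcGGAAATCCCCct
Rela, chr19:5637291-5637540, plus strand: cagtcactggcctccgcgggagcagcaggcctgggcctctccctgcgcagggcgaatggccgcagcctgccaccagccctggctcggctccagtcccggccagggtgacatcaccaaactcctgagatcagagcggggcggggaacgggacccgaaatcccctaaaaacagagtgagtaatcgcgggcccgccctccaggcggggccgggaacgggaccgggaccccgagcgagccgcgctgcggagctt
Nfkbia held 1 match (GGAAATTCCC), Nfkbie 1 (GGGGGATTCC), Tnfaip3 2 and Rela 0. RefSeq windows of 300 bases were at hand for 7 members, and 8 of their 12 windows, from 6 members, had a match, against 8.46% of all 32851 windows. Nfkb2, Rel and Nfkbid were the other 3 members with a match, and within Nfkb2 and within Rel some matches overlapped. A pair of Nfkb2 windows also overlap and share a match, the only one of the second of them, so the matched windows are not independent. A match is a run of letters and was not read as a bound site.

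Library depth was similar, with 67030914 UMIs over 10000 barcodes in the exposed library and 62047730 UMIs over 10312 barcodes in the control library. After filters on UMIs, genes and mitochondrial share, and removal of predicted doublets, 8690 exposed and 8940 control cells remained, with medians of 4153 and 3673 UMIs per cell; 18 barcodes of the cells kept occurred in both libraries. Clusters were named from fixed marker genes as X-like. Exposed and control cells could be compared in 14 classes, each with 50 cells or more per library, among them a cluster of 299 exposed and 165 control cells that stayed unnamed and was led by the interferon-induced genes Rsad2, Ifit1 and Ifit3. It is called the interferon-gene cluster, and it held neutrophil RNA (S100a8, S100a9 and Retnlg) at 89.6% of the neutrophil-like level in the exposed library and 81.3% in the control library. UMIs were summed per class and library. With 1 library per group there is no spread between animals and no test: an exposed over control ratio is called higher or lower where its 95% interval, which covers counting error only, excludes equality, and the exposure cannot be told apart from any other difference between the libraries. Levels are CPM within the class, and comparisons are log2 ratios of exposed over control. A 3′ tag counts a transcript once whatever its length, so levels of different genes are set side by side without a length term. Intervals were not adjusted for the number of ratios.

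Levels are described first, and the members differed in which classes held most of them.

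**Figure D1:**
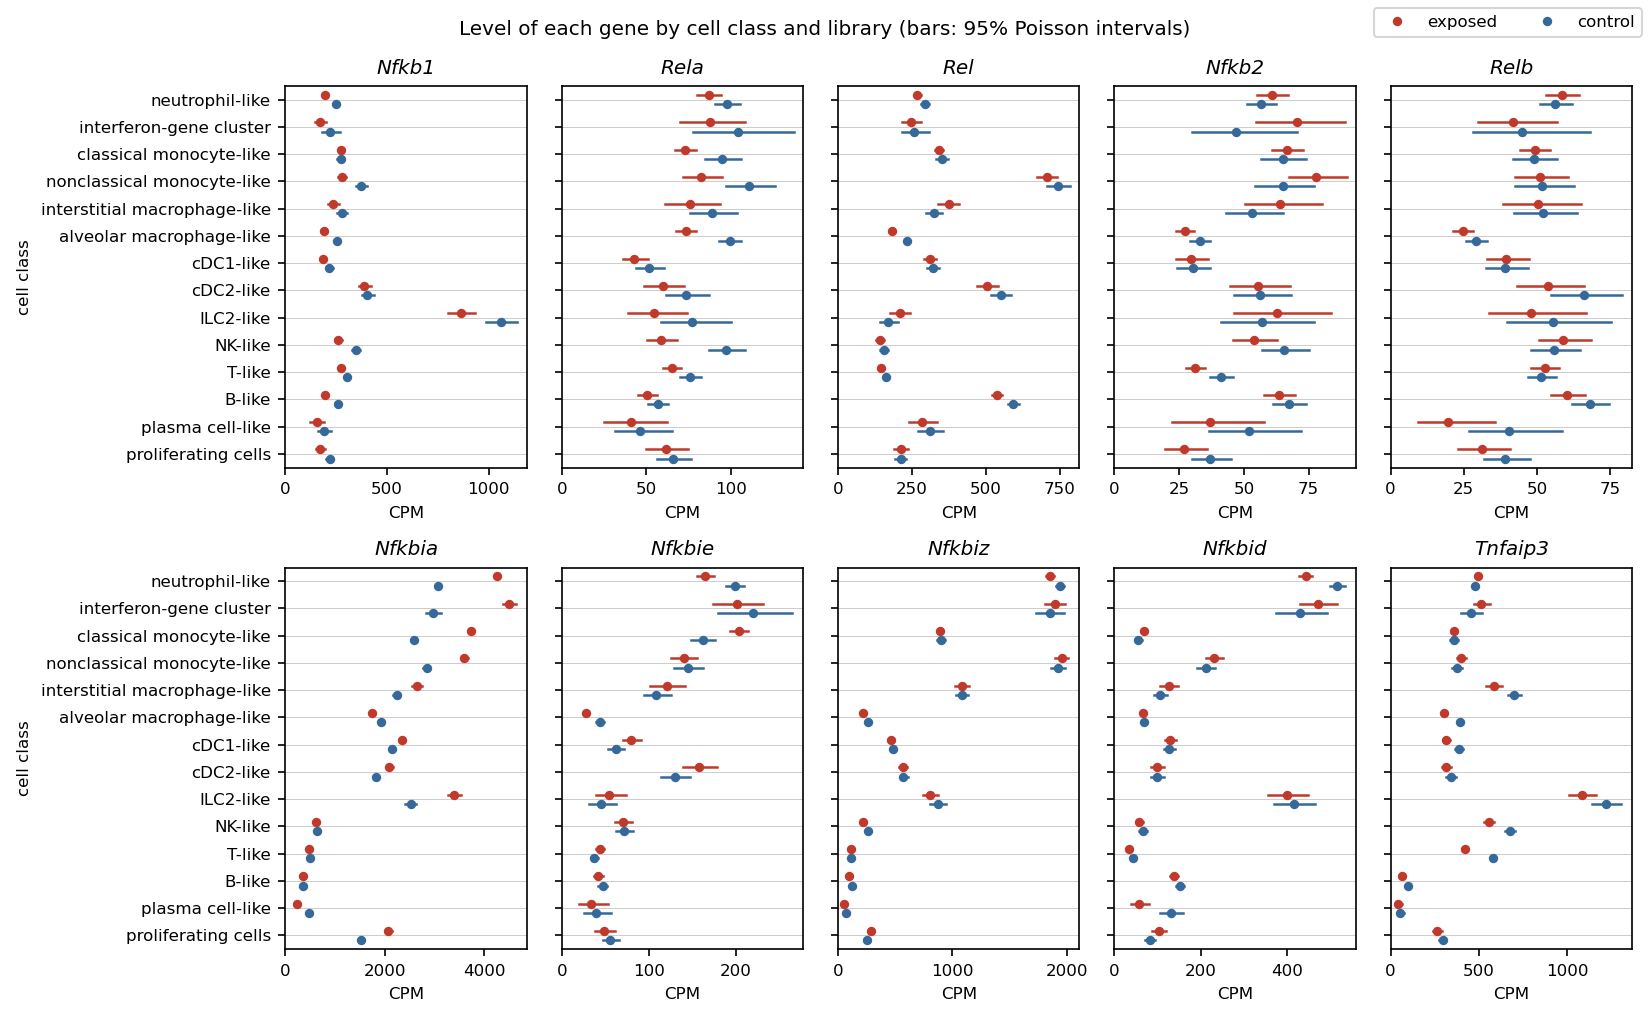
Level of the 10 genes in 14 cell classes, in CPM of the class's UMIs (x axis, from 0). Points are the library values, exposed drawn above control in each row, and bars are exact 95% Poisson intervals of counting error. Nfkbiz sits highest in nonclassical monocyte-like, neutrophil-like and interferon-gene cells, Nfkbia in these and in classical monocyte-like and ILC2-like cells, Nfkb1 and Tnfaip3 in ILC2-like cells.

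Among the subunits, Nfkb1 was highest in ILC2-like cells, at 863 CPM in the exposed and 1059 CPM in the control library; regulatory T-like cells, a gate under 50 cells, came next at 519.8 and 503 CPM, and cDC2-like cells at 389 and 404 CPM. Rel, the c-Rel gene active in lymphocytes and dendritic cells, was highest in mature DC-like cells at 1035 and 879.6 CPM, followed by nonclassical monocyte-like cells at 706 and 745 CPM and B-like cells at 537 and 592 CPM. Relb, the partner of p52 in the non-canonical pathway, stood at 674 CPM (exposed) and 501 CPM (control) in mature DC-like cells and at 68.0 CPM or less in every class with 50 cells, so both library values of mature DC-like cells lay above those of all other classes. Nfkb2 was also highest there, at 171 and 163 CPM. Mature DC-like cells numbered 33 exposed and 25 control cells, so these levels rest on few cells and their ratios are not read. Rela differed less between classes than Nfkb1 or Rel: its values ran within 40.9 to 87.7 CPM in the exposed library and within 46.3 to 111 CPM in the control library over the 14 classes, and most neighbours in its order overlapped.

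The genes of the inhibitors were high in several myeloid classes and in ILC2-like cells. Nfkbia had 4504 CPM (exposed) and 2977 CPM (control) in the interferon-gene cluster, 4261 and 3063 CPM in neutrophil-like cells, 3739.6 and 2587 CPM in classical monocyte-like cells, 3605 and 2843 CPM in nonclassical monocyte-like cells, and 3395 and 2521 CPM in ILC2-like cells. Those 5 classes overlap one another in the range between their libraries, so their order is not settled; B-like cells, at 363 and 345 CPM, and plasma cell-like cells, at 226 and 471 CPM, were the lowest of the 14. Nfkbiz was highest in nonclassical monocyte-like cells (1958 and 1925 CPM), neutrophil-like cells (1856 and 1941 CPM) and the interferon-gene cluster (1899 and 1854 CPM), which overlapped, and stood at 111 and 117 CPM in T-like cells. Nfkbid was highest in the interferon-gene cluster (469.8 and 429.7 CPM), neutrophil-like cells (442 and 516 CPM) and ILC2-like cells (399 and 415 CPM). Nfkbie was highest in the interferon-gene cluster (201 and 219 CPM), classical monocyte-like cells (203 and 162 CPM) and neutrophil-like cells (165 and 199 CPM). Tnfaip3 led in ILC2-like cells at 1086 and 1221 CPM, followed by interstitial macrophage-like cells at 584 and 701 CPM and NK-like cells at 556 and 677 CPM, which overlapped. B-like and plasma cell-like cells were at or below 95.9 CPM for Tnfaip3.

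A share of cells with at least 1 UMI gives the same picture for Nfkbia after each cell was thinned to 1000 UMIs. Of neutrophil-like cells 83.1% of exposed and 73.6% of control cells had a Nfkbia UMI (92.7% and 85.3% unthinned, median depths of 2879 and 2673.5 UMIs). Of classical monocyte-like cells 87.9% and 73.4% did (99.0% and 96.5% unthinned, median depths of 12321 and 8792 UMIs). In B-like cells 26.6% of exposed and 26.2% of control cells did (59.1% and 54.8% unthinned), at medians of 3625 and 3265 UMIs; leukocytes that lack Nfkbia are not known, so this is a comparison between classes and not a background.

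Nfkbia, Nfkbie, Nfkbiz, Nfkbid and Tnfaip3 together took 91.5% of the family's UMIs in exposed and 89.2% in control neutrophil-like cells. Of the family there, the nuclear IkB genes Nfkbiz and Nfkbid took 23.5% and 5.61% in exposed cells, and 27.9% and 7.42% in control cells. In B-like cells the same group of genes with Tnfaip3 took 43.7% in exposed and 42.1% in control cells, and Rel alone took 33.4% and 32.9%. Nfkbia alone took 61.7% of family UMIs in exposed and 52.8% in control classical monocyte-like cells.

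**Figure D2:**
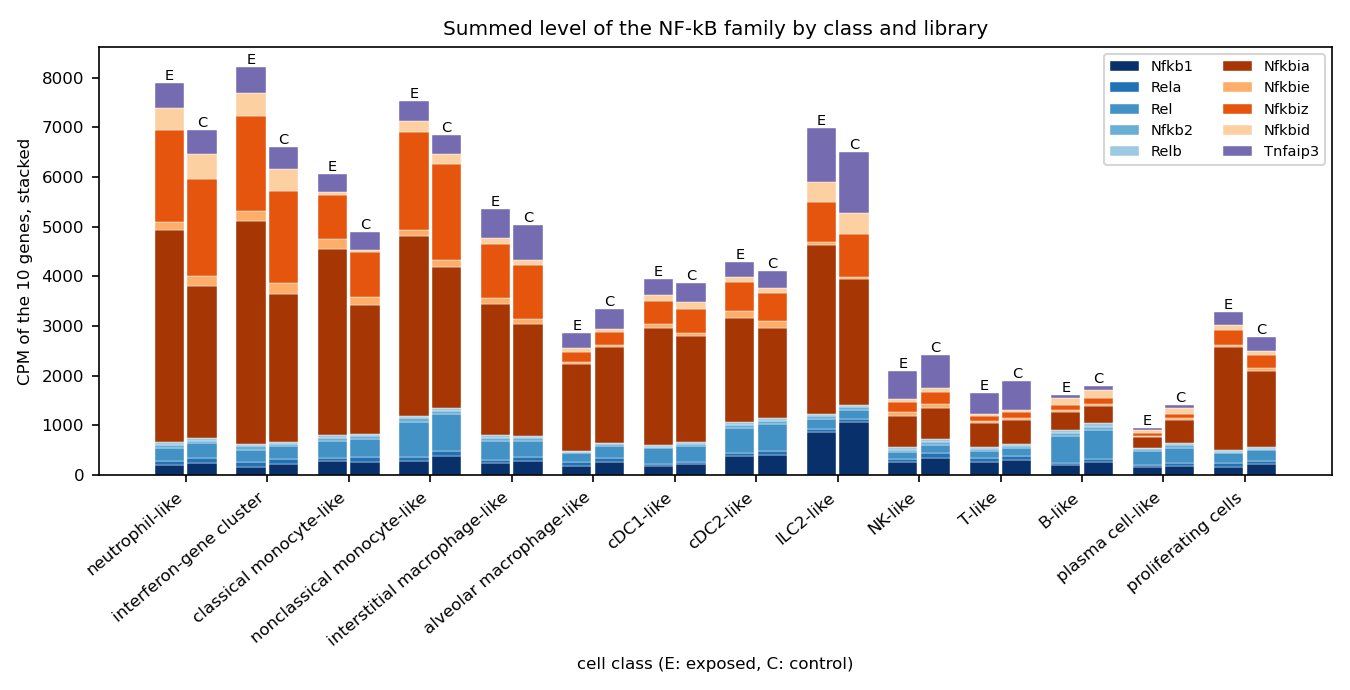
Summed level of the 10 genes by cell class, in CPM of the class's UMIs stacked by gene (y axis), exposed left (E) and control right (C). Among exposed cells the stack is tallest in the interferon-gene cluster (8206 exposed, 6611 control) and among control cells in neutrophil-like cells (7882 exposed, 6951 control). It is lowest in plasma cell-like cells (942 and 1405), and Nfkbia (brown) and Nfkbiz (orange) fill most of it in myeloid classes.

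Exposed and control cells were then compared gene by gene. Of 138 gene-by-class ratios with at least 50 UMIs over both libraries, 59 lay outside counting error, 17 with the exposed library higher and 42 with it lower. Over all genes, 4.4% to 15.9% were higher and 7.58% to 28.0% lower, depending on the class. The members' split depended on scaling: by the median gene ratio in place of total UMIs it was 25 higher and 30 lower. The shares of all genes given here and below are by total UMIs and were not counted under that scaling. Past 1.5-fold were 6 of the 59: Nfkbia in the interferon-gene cluster upwards, and downwards Rela in NK-like, Nfkbie in alveolar macrophage-like, Tnfaip3 in B-like and Nfkbia and Nfkbid in plasma cell-like cells. By gene, Nfkb1 was lower in 11 of 14 classes and higher in 0, Rela lower in 6, Rel higher in 1 and lower in 4, Nfkb2 lower in 2, and Relb in no class either way. Nfkbia was higher in 9 and lower in 2. Tnfaip3 was lower in 7 and higher in 0 by total UMIs. The other inhibitors went both ways: Nfkbie was higher in 4 and lower in 2 classes, Nfkbid higher in 2 and lower in 4, and Nfkbiz higher in 1 and lower in 4. As background, of 1476 genes that reached the count minimum in all 14 classes, 3.05% were higher in at least as many classes as Nfkbia, 3.73% were lower in at least as many as Nfkb1, 18.4% in at least as many as Tnfaip3 and 26.6% in at least as many as Rela. By these shares, counts like those of Tnfaip3 and Rela were common among genes, and counts like those of Nfkbia and Nfkb1 were not. The 1476 genes were not matched to the members by UMI count, and more UMIs narrow an interval. With scaling by the median gene ratio Nfkb1 was lower in 8 of 14 classes. Nfkbia was then higher in 11 and lower in 2, and Tnfaip3 higher in 3 and lower in 7. No share of all genes was counted under that scaling. Such shares are not given for the other members. Lower ratios were the more common across genes: the median gene stood at -0.14 in B-like and -0.11 in T-like and in plasma cell-like cells.

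**Figure D3:**
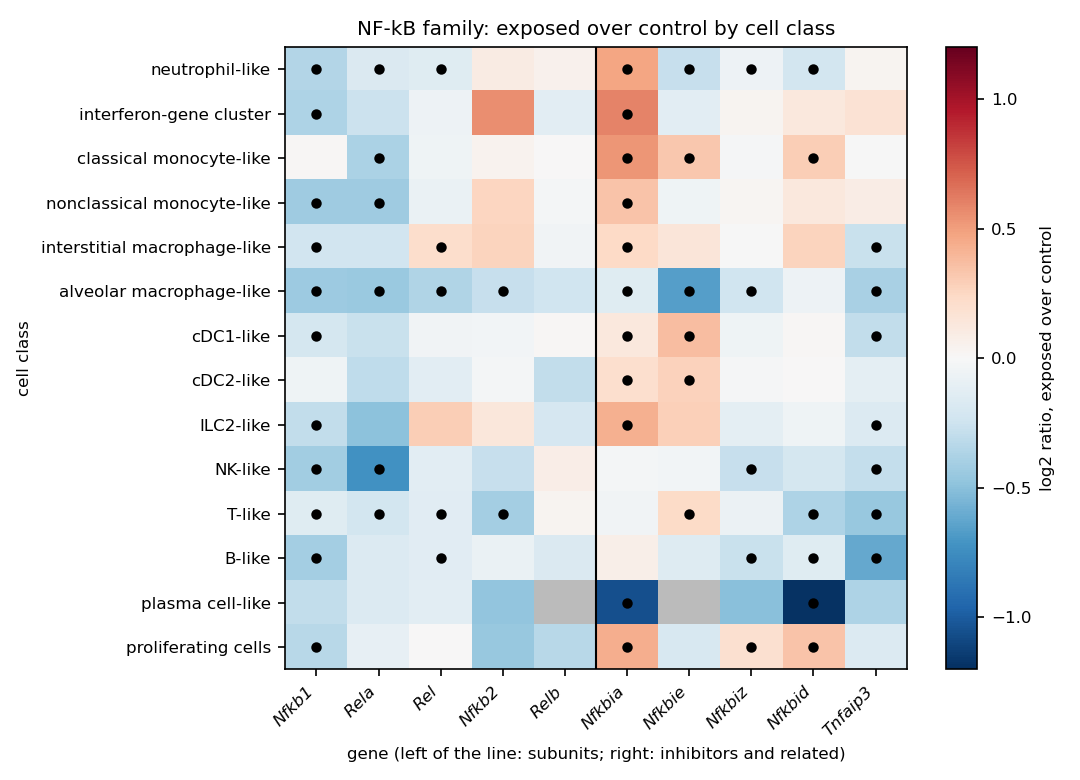
Log2 ratio of exposed over control CPM for the 10 genes (columns) in 14 classes (rows). Red is higher and blue lower in the exposed library, dots mark 95% intervals that exclude equality and grey marks fewer than 50 UMIs. Nfkbia has 9 red and 2 blue cells with dots, Nfkb1 has 11 blue ones.

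Neutrophil-like cells, the largest class, had more Nfkbia and less of most other members in the exposed library. Nfkbia had 4261 CPM in exposed cells, from 30070 UMIs, and 3063 CPM in control cells, from 21828 UMIs, a log2 ratio of 0.48 (95% interval 0.45 to 0.50). That was the highest ratio among the 49 genes with a UMI count within 2-fold of its own, whose median was 0.01. In every other class at least 1 such gene had a higher ratio than Nfkbia, as in classical monocyte-like cells (highest 1.03, Nfkbia 0.53). In NK-like, plasma cell-like and alveolar macrophage-like cells Nfkbia lay below the median of such genes. Among neutrophil-like cells Nfkbia was the 1 member higher against 6 lower, where 10.4% of 6852 genes were higher and 23.5% lower. The median member stood at -0.10, close to the median gene at -0.09. Scaled by the median gene ratio, 2 members were higher and 3 lower, with no share of all genes counted that way. Nfkb1 had 193 CPM exposed and 247 control (-0.35), Nfkbie 165 and 199 (-0.27), Nfkbid 442 and 516 (-0.22), Rela 87.0 and 97.9 (-0.17) and Rel 267 and 295 (-0.14). Nfkbiz, at -0.07, was lower by total UMIs but 0.026, within counting error, when scaled by the median gene ratio. Tnfaip3 stood at 493 CPM exposed and 481 control, within counting error by total UMIs but higher when scaled by the median gene ratio.

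The class was made mainly of a cluster led by Retnlg and S100a8, with 1228 exposed and 1444 control cells, and one led by Marcksl1, Il23a and Acod1, with 1075 and 1145 cells. Nfkbia was higher in the exposed cells of both, at 2437 against 1638 CPM in the first (0.57) and 6497 against 4870 CPM in the second (0.42). The second cluster held more of every member in both libraries, from Nfkb1 to Tnfaip3. Nfkb1 had 293 CPM exposed and 415 control there (-0.50), and 106 and 109.7 CPM, within counting error, in the first. Nfkbid had 324 CPM exposed and 433 control in the first cluster (-0.42), and 597 and 627 CPM, within counting error, in the second. Tnfaip3 was higher in the exposed cells of the first, at 280.2 against 235 CPM (0.25), and within counting error in the second, at 752 and 788 CPM. Whether the clusters differ in these ratios was not tested.

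The interferon-gene cluster had 1 member higher and 1 lower, where 7.87% of 2604 genes were higher and 15.7% lower. Scaled by the median gene ratio, 3 members were higher and 0 lower, with no share of all genes counted that way. Nfkbia had 4504 CPM exposed and 2977 control, with a ratio of 0.60 (0.51 to 0.68); past 1.5-fold upwards were 3.65% of genes there. Nfkb1 was the lower one, at 171 and 221 CPM (-0.37). With this cluster added to the neutrophil-like cells, all 7 of their ratios outside counting error stayed outside it.

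Classical monocyte-like cells, whose recruitment the title of the study names, had 3 members higher and 1 lower, where 15.9% of 7970 genes were higher and 20.1% lower. Nfkbia had 3739.6 CPM exposed and 2587 control (0.53, interval 0.50 to 0.57), Nfkbie 203 and 162 (0.32, 0.18 to 0.47) and Nfkbid 68.5 and 55.7 (0.30, 0.05 to 0.55). Rela, at 72.9 and 95.0 CPM, was the lower one (-0.38). The other 6 lay within counting error, Nfkb1 among them at 274 and 271 CPM.

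The cells of this class were not alike in the libraries. Of its 8 sub-clusters, 3 held 339 exposed and 6 control cells; they were led by Lrg1, Ly6a and Cxcl1, by Cd38, Cxcl1 and Mir155hg, and by S100a8, Wfdc21 and Lcn2. Nfkbia stood at 4566, 4505 and 2805 CPM in their exposed cells and Nfkbie at 225, 289 and 149 CPM. Both genes were thus high in the first pair of them. The sub-cluster led by Ccl5 and Acod1, with 64 exposed and 123 control cells, was as high and near even, at 4148 CPM exposed and 4113 control for Nfkbia and 223 and 248 CPM for Nfkbie. The largest of the shared sub-clusters, with 77 and 127 cells, had Nfkbia at 2202 CPM exposed and 1608 control.

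Leaving the one-library sub-clusters out moved the class values. Nfkbia was then 0.13 (0.09 to 0.18), still higher, and Nfkbie was -0.26 (-0.46 to -0.06), so it changed direction. Nfkbid was 0.36, Rela -0.49 and Nfkb2 -0.37, which gives 2 members higher and 3 lower. No share of all genes was counted for the cells that remained. Neutrophil markers summed to 1128 CPM in exposed and 572 CPM in control cells of the class, with all 8 detected in exposed and 7 in control cells. Alveolar macrophage markers, all 12 detected in both, summed to 2246 and 1353 CPM. Chil3 is on both the alveolar macrophage and the classical monocyte list, so that sum includes a marker of the class itself. The part of these markers in the result was not tested. Neutrophil RNA stood at 0.554% of the neutrophil-like level in exposed and 0.269% in control cells.

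**Figure D4:**
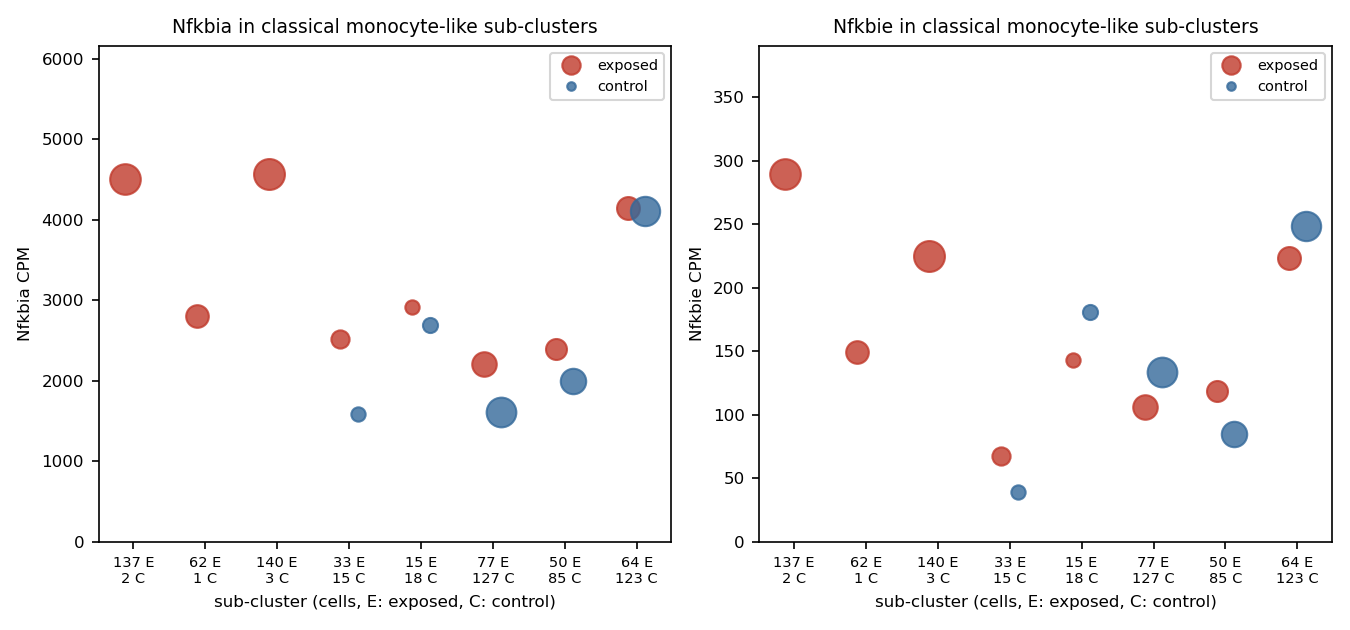
Nfkbia and Nfkbie level (CPM, y axis from 0) in the 8 sub-clusters of classical monocyte-like cells, ordered by their share of exposed cells. Point area grows with the number of cells, given under the axis, and control values are drawn where there are at least 10 cells. The 3 left sub-clusters hold 339 exposed and 6 control cells, and the right one has close to equal Nfkbia in both libraries.

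Nonclassical monocyte-like cells had 1 member higher and 2 lower, where 7.8% of 6330 genes were higher and 13.6% lower. Scaled by the median gene ratio, 4 members were higher and 2 lower, with no share of all genes counted that way. Nfkbia had 3605 CPM exposed and 2843 control (0.34, 0.29 to 0.39). Nfkb1, at 279 and 374 CPM (-0.43), and Rela, at 82.7 and 111 CPM (-0.42), were lower. One of the class's clusters held neutrophil RNA at 35.6% of the neutrophil-like level in exposed and 34.0% in control cells, against 0.414% and 0.131% in the other. Without it Nfkbia was closer to even, at 2862 CPM exposed and 2504 control (0.19, 0.12 to 0.27), Nfkb1 was -0.56 and Rela -0.53. Outside counting error there were also Nfkb2, higher at 0.58 (0.10 to 1.09), and Nfkbiz (-0.11) and Tnfaip3 (-0.23), both lower. No share of all genes was counted without that cluster.

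Alveolar macrophage-like cells had 8 members lower and 0 higher, where 17.9% of 9622 genes were lower and 8.53% higher. The members' median ratio was -0.32 and that of all genes -0.05. Nfkbie had 27.5 CPM exposed and 43.6 control (-0.66, -0.90 to -0.43), past 1.5-fold with 3.86% of genes. Rela had 73.4 CPM exposed and 99.6 control (-0.44), Nfkb1 188 and 254 (-0.43), Tnfaip3 299.7 and 391 (-0.38) and Rel 181 and 233 (-0.36). Nfkb2 (-0.28), Nfkbiz (-0.24) and Nfkbia, at 1746 and 1929 CPM (-0.14), were the other 3, while Relb (-0.24) and Nfkbid (-0.06) lay within counting error. With the predicted doublets kept, 4 members were lower (Nfkb1, Rel, Rela and Tnfaip3), Nfkbiz turned to 0.081, and Nfkbia (-0.00) and Nfkbie (-0.16) lay within counting error. No share of all genes was counted with doublets kept.

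Interstitial macrophage-like cells had 2 members higher and 2 lower, where 6.79% of 6005 genes were higher and 11.6% lower. Scaled by the median gene ratio, 2 members were higher and 1 lower, with no share of all genes counted that way. Nfkbia had 2647 CPM exposed and 2237 control (0.24). Rel, at 373 and 323 CPM, had a ratio of 0.21, but -0.021 with doublets kept and -0.025 under a per-cell marker gate. Tnfaip3, at 584 and 701 CPM (-0.26), and Nfkb1, at 236 and 277 CPM (-0.23), were lower. Epithelial markers summed to 17.1 CPM in exposed cells, with 3 of 6 detected, and 2211 CPM in control cells, with 6 of 6, and endothelial markers, 5 of 5 detected in both, to 14.5 and 234 CPM; their part in the result was not tested.

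Both conventional dendritic classes had more Nfkbia and Nfkbie in the exposed library. In cDC1-like cells 2 members were higher and 2 lower, where 9.03% of 6986 genes were higher and 9.81% lower: Nfkbia (2349 CPM exposed, 2147 control, 0.13) and Nfkbie (79.9 and 61.7, 0.37) against Nfkb1 (186 and 215, -0.21) and Tnfaip3 (315 and 387, -0.30). Nfkb1 there was 0.021 when each cell weighed the same. In cDC2-like cells Nfkbia (2092 and 1821 CPM, 0.20) and Nfkbie (157 and 130.0 CPM, 0.28) were higher and 0 lower, where 8.04% of 5756 genes were higher and 14.5% lower; under the marker gate Nfkbia was -0.075, within counting error.

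ILC2-like cells, which hold the highest Nfkb1 and Tnfaip3 of the 14 classes, had 1 member higher and 2 lower, where 7.95% of 3801 genes were higher and 7.58% lower. Nfkbia had 3395 CPM exposed and 2521 control (0.43). Nfkb1, at 863 and 1059 CPM (-0.30), and Tnfaip3, at 1086 and 1221 CPM (-0.17), were the lower ones. Neutrophil markers, 7 of 8 detected in both libraries, summed to 872 CPM in exposed and 230.3 CPM in control cells of the class, and proliferation markers, 7 of 7 detected in exposed and 5 in control cells, to 377 and 28.5 CPM. NK markers, 4 of 8 detected in exposed and 8 in control cells, summed to 18.7 and 121 CPM. The part of these markers in the result was not tested.

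In T-like, B-like and NK-like cells Nfkbia lay within counting error by total UMIs, at 473 CPM exposed and 488 control, 363 and 345, and 617 and 628. Tnfaip3 and Nfkb1 were lower in all 3. Scaled by the median gene ratio, Nfkbia was higher in T-like and B-like cells, and Nfkb1 in T-like cells lay within counting error. T-like cells had 1 member higher and 6 lower, where 5.17% of 9349 genes were higher and 23.9% lower. Scaled by the median gene ratio, 2 members were higher and 3 lower in T-like cells, with no share of all genes counted that way. Tnfaip3 had 424 CPM exposed and 581 control there (-0.46), and 33.8% of exposed and 43.0% of control T-like cells had a UMI after thinning (86.0% and 88.7% unthinned, at medians of 6004 and 5386 UMIs per cell). The CD4 gate gave 426 and 636 CPM (-0.58) and the CD8 gate 380.2 and 526 CPM (-0.47), so both held the difference. Nfkbie, at 43.6 and 37.3 CPM (0.23), was the member higher in T-like cells by total UMIs.

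B-like cells had 0 members higher and 5 lower, where 5.82% of 8946 genes were higher and 28.0% lower, so the background was itself shifted. Scaled by the median gene ratio, 1 member was higher and 2 lower, with no share of all genes counted that way. Tnfaip3 had 62.7 CPM exposed and 95.9 control (-0.61, -0.79 to -0.43), past 1.5-fold with 4.02% of genes, and Nfkb1 195 and 258 (-0.41). Rel, the largest member in these cells, had 537 CPM exposed and 592 control (-0.14), and 0.0016 when scaled by the median gene ratio. NK-like cells had 0 higher and 4 lower, where 6.57% of 7728 genes were higher and 11.2% lower. Rela, at 58.6 CPM exposed and 97.3 control (-0.73, -1.01 to -0.46), was past 1.5-fold with 2.25% of genes. Nfkb1 (-0.42), Tnfaip3 (556 and 677 CPM, -0.28) and Nfkbiz (215 and 259.9 CPM, -0.27) were the other 3.

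The smallest classes gave values that rest on few cells or on a mixture. Plasma cell-like cells, 50 exposed and 67 control, had 0 of 8 members higher and 2 lower, where 4.4% of 2660 genes were higher and 12.6% lower, and 7.97% were past 1.5-fold downwards. Nfkbia had 226 CPM exposed and 471 control (-1.06) and Nfkbid 56.4 and 130.1 (-1.19). The top control cell for each gene gave 19.0% of the Nfkbia and 32.2% of the Nfkbid UMIs, and without the top cell of each library the ratios were -0.91 and -0.90. Classical monocyte markers, 5 of 8 detected in exposed and 6 in control cells, with Fn1 and Vcan at 0 in both, summed to 1484 CPM exposed and 273 control; their part in the result was not tested. No cluster took the name plasma cell under the stricter filter, with doublets kept, at resolution 0.6 or with each library clustered alone, so these ratios have no value there. Proliferating cells had 3 members higher and 1 lower, where 10.3% of 7672 genes were higher and 15.3% lower, with T cell markers, all 8 detected in both, at 421 CPM exposed and 1515 control. Nfkbia had 2073 CPM exposed and 1530.1 control (0.44). Within the larger cluster of that class, with 60 exposed and 69 control cells, it had 2172 and 1977 CPM (0.14). Nfkbid and Nfkbiz, both higher in the class, lay within counting error in that cluster.

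Genes around the family were counted by lists in classical monocyte-like, alveolar macrophage-like, interstitial macrophage-like and neutrophil-like cells, against the same shares of all genes as above. The inflammatory targets of the pathway, 22 genes, were 9 higher and 9 lower in classical monocyte-like cells, with a median of -0.02 and a summed level of 15854 CPM exposed and 10824 control. Il1b, a pyrogenic cytokine, had 7018 CPM exposed and 3434 control (1.03), and the neutrophil chemoattractants Cxcl2 and Cxcl1 had 2511 and 1581 CPM (0.67) and 191 and 68.2 CPM (1.48). The values of all lists in this class include the one-library sub-clusters, and Cxcl1 was among the leading genes of a pair of them. List values without those sub-clusters were not computed. In the class as a whole the list thus split, with the most abundant genes, Il1b and Cxcl2, higher. In alveolar macrophage-like cells 4 were higher and 13 lower: Ptgs2, which makes prostaglandins, had 14.9 CPM exposed and 39.5 control (-1.40) and Il6 15.7 and 37.0 (-1.23), while Tnf had 700.05 and 515 (0.44). The list's median there was -0.23, and 0.11 with doublets kept. In interstitial macrophage-like cells 5 were higher and 12 lower, with Il6 at 16.2 CPM exposed and 206 control (-3.64) and Il1b at 2877 and 2332 (0.30). Cxcl2, the most abundant there, had 6501 CPM exposed and 9180 control (-0.50). In neutrophil-like cells 7 were higher and 8 lower of 21, and the most abundant were close to even: Il1b at 17893 CPM exposed and 16995 control (0.07) and Cxcl2 at 16514 and 16525.

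Of 21 genes of the IkB kinases and their adaptors, classical monocyte-like cells had 1 higher and 5 lower of 19 counted, alveolar macrophage-like cells 0 and 7 of 21, interstitial macrophage-like cells 1 and 1 of 15 and neutrophil-like cells 2 and 3 of 19. Ikbkb, the gene of a catalytic subunit, had 232 CPM exposed and 285 control in classical monocyte-like cells (-0.30). Of 18 receptors, these classes had 2 higher and 5 lower of 14, 0 and 6 of 12, 2 and 2 of 11, and 2 and 6 of 11, in the same order. Cd14, the co-receptor for lipopolysaccharide, had 3192 CPM exposed and 2376 control in classical monocyte-like cells (0.43) and 232 and 336 in alveolar macrophage-like cells (-0.53). Tlr2 was lower in classical monocyte-like cells, at 346 CPM exposed and 438 control (-0.34). Il1r2, a decoy receptor for IL-1, had 3305 CPM exposed and 4846 control in neutrophil-like cells (-0.55), and Il1rap, the IL-1 receptor accessory chain, 171 and 103 (0.73). The receptors of one ligand family thus differed in opposite directions in that class.

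Of 17 other inhibitors and brakes, 2 were higher and 4 lower of 16 in classical monocyte-like cells, 1 and 7 of 15 in alveolar macrophage-like cells, 1 and 3 of 15 in interstitial macrophage-like cells, and 2 and 2 of 15 in neutrophil-like cells. Zfp36, which destabilises cytokine mRNAs, had 961 CPM exposed and 1129 control in classical monocyte-like cells (-0.23) and 2413 and 2213 in neutrophil-like cells (0.12). Cyld, a deubiquitinase, had 178 CPM exposed and 230 control in neutrophil-like cells (-0.37). Of 15 immediate early genes, which tissue digestion also induces, 0 were higher and 10 lower in classical monocyte-like cells, 8 and 5 in alveolar macrophage-like cells, 6 and 3 in interstitial macrophage-like cells, and 4 and 7 in neutrophil-like cells; their part in the members' ratios was not tested. Dusp1, a MAP kinase phosphatase, had 4449 CPM exposed and 5780 control in neutrophil-like cells (-0.38). Hspa1a had 181 CPM exposed and 98.2 control in alveolar macrophage-like cells (0.88).

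Over the 14 classes in both libraries, 28 points that share libraries and depth, the profile most like that of Nfkbia (Pearson r of log2(CPM + 10)) was Alox5ap, at 0.91, then Cdkn1a and Mapk14 at 0.90. Nfkb1 ran with Il1rl1 (0.87), Csf2 and Arg1, Rel with Stap1 (0.88), Ptprj and Uvrag, and Nfkbid with Csf1 (0.89), Hdc and Ifitm1. Il1rl1, Csf2 and Arg1 are leading genes of the ILC2-like cluster, where Nfkb1 was highest too, and each r includes that class. Among pairs of members, Nfkbia and Nfkbiz had the highest r, 0.91, Nfkb2 and Relb had 0.67 and Nfkb1 and Rel -0.06. All are descriptions over the same points.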

How the data were processed

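The authors deposited 1 droplet 3′ count matrix per library, whole-number UMI counts per gene and cell barcode, 1 library per group. Per the labels, the tissue was digested at 37 °C for 30 minutes and CD45+ cells sorted. Build mm10 and Cell Ranger 3.1.3 are named in the submitters' processing notes, while the file headers name 3.1.0; other upstream settings are not given in the sources used here.

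Cells with under 500 UMIs, under 200 genes or over 10% mitochondrial UMIs were left out, and the barcodes with most simulated doublets among their neighbours were removed as doublets, 0.8% per 1000 cells. Leiden clusters (resolution 1, 2000 variable genes without the members, 30 components, 20 neighbours; scanpy 1.11.5, leidenalg 0.10.2) were named from fixed markers. Counts were summed per class and library. Ratios used exact conditional binomial intervals with 0.5 counts added on the log2 scale, CPM exact Poisson intervals and shares exact Clopper-Pearson intervals (Python 3.11.15, scipy 1.17.1). Intervals cover counting error only. A ratio was counted with at least 50 UMIs over both libraries and 50 cells in each. The interval step was tested on simulated data. Besides the members, list genes were named from a fixed pool. Per list in 4 classes, it held the 2 with the most UMIs and the 2 whose interval lay farthest from 0. Not all genes of that pool are given. For 4 members the 3 genes of most similar profile were named. The members and lists were chosen with earlier results of these data known. Alternatives tried are in the closing section.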

Additional observations from a re-analysis of the deposited data

Results flagged for a closer look

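These pairs of classes had ratios of opposite sign with intervals that exclude equality. The difference between the classes itself was not tested, since each group has 1 library. For Nfkbia the log2 ratio of exposed over control was 0.60 in the cluster led by interferon-induced genes and -1.06 in plasma cell-like cells. For Nfkbid it was 0.34 in proliferating cells and -1.19 in plasma cell-like cells. For Nfkbie it was 0.37 in cDC1-like cells and -0.66 in alveolar macrophage-like cells. The plasma cell-like values rest on 50 exposed and 67 control cells. With doublets kept, Nfkbie in alveolar macrophage-like cells lay within counting error.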

How the results depend on the processing

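No paired analysis was possible because each group has 1 library. The alternatives were a stricter cell filter, doublets kept, clustering at resolution 0.6 or 1.6, members among the variable genes, each library clustered alone, a per-cell marker gate, equal weight per cell, scaling by the median gene ratio, leaving out the deepest 5% of cells, other UMI minimums and folds. Added after seeing the data were leaving out the one-library monocyte sub-clusters, the nonclassical cluster with neutrophil RNA or the top cell per gene, and adding the interferon-gene cluster to the neutrophils. Of 59 ratios outside counting error, equal weight left 51 outside, scaling 47 and leaving out the deepest cells 49. The gate kept 43 of 51 that it could give. Under equal weight and scaling the intervals kept their width from the summed counts and were moved to the new ratios. The equal-weight count therefore does not reflect the error of that average. The count of members higher in alveolar macrophage-like cells was 1 with doublets kept, against 0. The count lower there was 4, against 8. The count higher in interstitial macrophage-like cells was 1, against 2, under the stricter filter, doublets kept, the gate and without the deepest cells. In neutrophil-like cells it was 2, against 1, with doublets kept and under scaling. No shares of all genes were counted under these settings. Under scaling Rel in B-like cells turned to 0.0016 and Nfkbiz in neutrophil-like cells to 0.026; with doublets kept Nfkbiz in alveolar macrophage-like cells turned to 0.081, their inflammatory-target median to 0.11 and Rel in interstitial macrophage-like cells to -0.021; under the gate Rel there was -0.025 and Nfkbia in cDC2-like cells -0.075; equal weight gave Nfkb1 in cDC1-like cells 0.021; and Nfkbie in classical monocyte-like cells was -0.26 without the one-library sub-clusters. The cause was not tested. Nfkbia was higher in 6 of 11 classes under the gate and in 8 or more under every other setting; Nfkb1 was lower in 8 of 11 under the gate and in 8 of 14 under scaling. Genes under 50 UMIs in a class could not be compared at this depth. The plasma cell-like class gave no value under the stricter filter, doublets kept, resolution 0.6, each library alone or the gate. The interferon-gene cluster gave none under any setting that clustered the cells again or used the gate.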

Other observations

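Classes under 50 cells were left out of the comparisons and their levels are given as values. Nfkbia had 1483 CPM in 43 exposed and 924 CPM in 53 control gamma-delta T-like cells, and 1105 CPM in 34 exposed and 735 CPM in 46 control regulatory T-like cells. In plasmacytoid DC-like cells it had 546 CPM in 25 exposed and 191 CPM in 24 control cells. Regulatory T-like cells had Tnfaip3 at 562 CPM exposed and 518 CPM control. Mature DC-like cells had Nfkb1 at 377 CPM exposed and 239 CPM control, and Nfkbiz at 240.3 and 399 CPM.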
